A study of Homo sapiens with 32 samples.

Results

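The genes described here are 10 transcription factors and regulators linked to the early response of cells to a stimulus: the AP-1 subunits JUN, JUNB, JUND, FOS, FOSL1 and FOSL2, and the immediate-early genes EGR1, IER2, MYC and KLF6. They were chosen by name, with earlier results of these data known, and all 10 were found among the 22610 genes of the expression table. Transcripts were measured by RNA-Seq in an established human neuroblastoma cell line with amplified MYCN, SK-N-BE(2), treated with 20 µM cannabidiol (CBD, a nonpsychoactive cannabinoid, dissolved in ethanol) or with vehicle (0.1% ethanol) for 3, 6, 12 or 24 h. There were 4 samples in each of the 8 groups, 32 in all, and every group was the same line grown in 6-well dishes without any genetic change named in the labels. The labels number the samples of a group as replicates but do not say whether they were separate cultures or passages, so p-values here measure the spread between these samples. Values are FPKM (fragments per length of transcript and per mapped fragments of the library), which scales for gene length and library size.

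AP-1 is a dimer of basic leucine zipper proteins. JUN proteins pair with each other or with FOS proteins, while FOS proteins bind DNA only in a pair with a partner such as JUN. Growth factors, calcium and stress act through MAP kinases on factors already bound at the promoters of many immediate-early genes, so that transcription starts without new protein synthesis. FOS and EGR1 are classically driven by serum response factor at CArG boxes, and JUN by its own product and ATF2 at a variant AP-1 site. In the experiment, JUN, FOSL2 and JUND had lower transcript levels with CBD at 6 and 12 h, and EGR1 had higher levels at all 4 times. JUNB was called higher at 12 and 24 h, and KLF6 was called higher at 24 h alone among the times tested. By 24 h JUN averaged 0.942 times the vehicle level and was no longer called.

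The sequences upstream of the transcription start are shown for the 4 genes in which a site for AP-1, CREB/ATF or serum response factor was found. These 4 were chosen for the match alone, and the windows of the other genes without one are not printed. The sequences are from RefSeq on GRCh38.p14 and run 5′ to 3′ over the 250 bases before the start. Promoters of 8 of the 10 genes were matched. Motifs searched on both strands were the AP-1 site (TGACTCA or its reverse complement TGAGTCA), the CRE (TGACGTCA, its own reverse complement), the variant AP-1 site (TGACATCA or TGATGTCA) and the CArG box, and no 2 of the matches overlapped. Capitals mark the variant AP-1 site in JUN and KLF6, the CRE in JUND and both CArG boxes in EGR1. The JUN stretch is chr1:58784048-58784297 on the minus strand, that of JUND is chr19:18281623-18281872 on the minus strand, that of EGR1 is chr5:138465229-138465478 on the plus strand, and that of KLF6 is chr10:3785210-3785459 on the minus strand.
JUN: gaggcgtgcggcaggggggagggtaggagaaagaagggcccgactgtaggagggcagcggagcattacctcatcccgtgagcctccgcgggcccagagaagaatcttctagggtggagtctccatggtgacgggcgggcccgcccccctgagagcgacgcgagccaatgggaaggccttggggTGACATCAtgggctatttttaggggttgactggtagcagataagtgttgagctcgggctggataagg
JUND: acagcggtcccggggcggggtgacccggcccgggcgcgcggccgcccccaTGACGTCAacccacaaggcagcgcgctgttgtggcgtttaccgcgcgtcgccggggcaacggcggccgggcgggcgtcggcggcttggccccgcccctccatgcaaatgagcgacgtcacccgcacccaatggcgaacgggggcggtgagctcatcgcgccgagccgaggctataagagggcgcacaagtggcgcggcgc
EGR1: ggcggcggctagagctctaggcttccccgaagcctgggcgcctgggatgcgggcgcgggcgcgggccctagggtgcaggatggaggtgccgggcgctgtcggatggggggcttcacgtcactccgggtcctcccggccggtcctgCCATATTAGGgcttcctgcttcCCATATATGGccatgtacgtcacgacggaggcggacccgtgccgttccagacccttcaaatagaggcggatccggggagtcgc
KLF6: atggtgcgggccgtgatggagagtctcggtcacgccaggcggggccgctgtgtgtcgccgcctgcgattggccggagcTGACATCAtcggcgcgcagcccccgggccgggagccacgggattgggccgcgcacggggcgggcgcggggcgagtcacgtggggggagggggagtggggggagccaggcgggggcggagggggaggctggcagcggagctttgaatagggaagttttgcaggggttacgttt

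The variant AP-1 site began 67 bases before the start of JUN and 172 bases before the start of KLF6. The CRE began 200 bases before the start of JUND, and the CArG boxes 105 and 83 bases before the start of EGR1. Of 35116 promoters over the same length, 2.37% held the variant AP-1 site, 1.65% the CRE, 1.16% a CArG box and 4.2% the AP-1 site. None of these letters was found in the window of JUNB, FOS, FOSL2 or IER2. Sites farther upstream or with other letters were not searched, so these genes may hold such sites. A match of letters is a description of the sequence and was not tested for binding.

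The files do not record read depth. Relative depth, estimated from low FPKM values, ran from 0.786 to 1.21 over the 32 samples, with group medians (CBD, then vehicle) of 0.919 and 1.05 after 3 h, 0.957 and 1.06 after 6 h, 0.924 and 1.00 after 12 h, and 1.00 and 1.02 after 24 h. All 10 neuroblastoma markers examined had a mean of at least 1 FPKM, none of 6 immune markers did, and all 4 endothelial markers were under 0.1 FPKM. Of 8 mesenchymal and fibroblast markers, 4 had a mean of at least 1 FPKM, led by TWIST1 at 209 FPKM, while COL1A2 and PRRX1 were under 0.1 FPKM, and the summed level was 262 to 303 FPKM with CBD and 241 to 287 FPKM with vehicle. Of 5 epithelial markers, EPCAM (2.51 FPKM) alone reached 1 FPKM, CDH1, KRT5 and KRT14 were under 0.1 FPKM, and the sum was 2.15 to 5.52 FPKM with CBD and 2.03 to 4.196 FPKM with vehicle. The part of such expression in the results was not tested. In a culture, a smaller share of cells expressing a gene and less RNA per cell cannot be told apart.

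Mean levels over the 32 samples spanned a wide range on the per-length FPKM scale. JUND was the most abundant of the 10 genes at 72.1 FPKM, followed by IER2 at 27.7, JUN at 24.4, JUNB at 18.8, KLF6 at 11.9, FOSL2 at 8.22 and EGR1 at 3.62 FPKM. The sample ranges of the neighbours IER2, JUN and JUNB overlapped (22.1 to 33.3, 13.5 to 35.5 and 14.0 to 23.4 FPKM), as did those of JUNB and KLF6, KLF6 and FOSL2, and FOSL2 and EGR1, whereas the lowest JUND sample (47.2 FPKM) was above every sample of the others. FOS (0.298 FPKM), FOSL1 (0.104 FPKM) and MYC (0.0160 FPKM) had means below 1 FPKM, the minimum set for the test across genes. That left 7 of the 10 genes and 12621 genes in all for that test, in which CBD was compared with vehicle on log2(FPKM + 1) with limma and a Benjamini-Hochberg adjusted p under 0.01 was called a change. This scale understates fold changes of low genes such as EGR1. Every log2 fold change below is CBD minus vehicle on it unless stated otherwise.

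**Figure D1:**
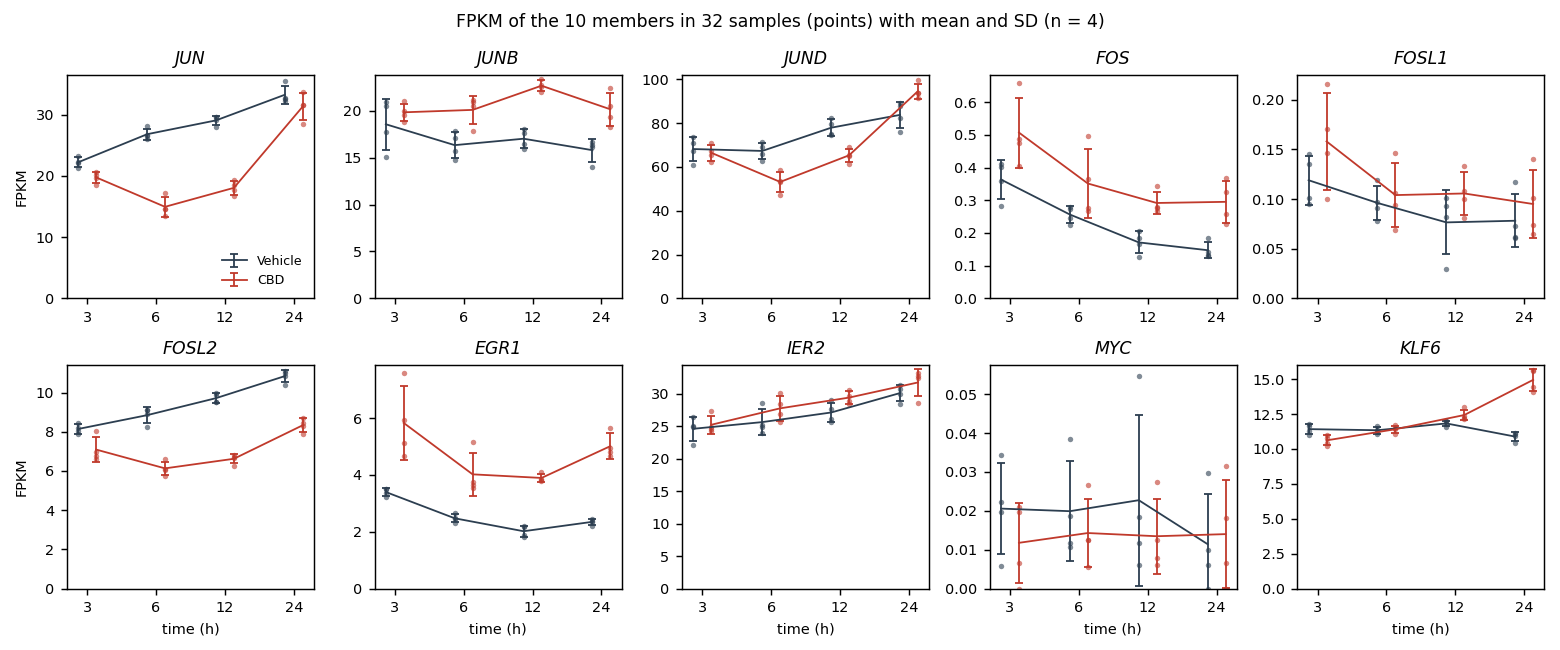
FPKM (vertical axis, from 0) of each of the 10 genes against time in hours, with 1 point per sample and lines through group means with SD bars (n = 4), vehicle in dark blue and CBD in red. With CBD, JUN, JUND and FOSL2 lie below vehicle at 6 and 12 h, and EGR1 lies above vehicle at every time. FOS, FOSL1 and MYC stay under 1 FPKM.

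JUN encodes the founding AP-1 subunit, c-Jun, a strong activator of transcription. It lies on the minus strand of chromosome 1 (hg19, 59246463 to 59249719, a single exon of 3257 bases in GENCODE). At 6 h JUN stood at 13.5, 17.3, 14.5 and 14.6 FPKM with CBD and at 25.97, 28.1, 26.7 and 26.5 FPKM with vehicle. Every CBD sample was far below every vehicle sample. The means were 14.95 ± 1.61 and 26.8 ± 0.905 FPKM (SD, n = 4), a ratio of 0.558, and the log2 fold change was −0.81 (SE 0.055), with a limma adjusted p of 2.75e-11. At 12 h the CBD samples were at 16.7, 18.5, 19.3 and 17.7 FPKM against 29.1, 29.7, 29.6 and 28.0 FPKM. The groups again did not overlap, and JUN was lower by a ratio of 0.621 (log2 fold change −0.66, limma adjusted p 6.28e-10).

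The early and late times framed this dip. At 3 h JUN was at 18.5, 20.6, 20.2 and 19.7 FPKM with CBD and at 22.1, 23.3, 22.3 and 21.3 FPKM with vehicle. The groups did not overlap, but the difference of −0.16 did not pass the threshold (limma adjusted p 0.0712). At 24 h the CBD samples were at 31.5, 28.4, 33.8 and 31.7 FPKM and the vehicle samples at 35.5, 32.7, 32.6 and 32.3 FPKM, with overlap between the groups. The difference was −0.085 with a 95% interval from −0.20 to 0.029 (limma adjusted p 0.205). The change of the effect itself was tested: it was 0.64 lower at 6 h than at 3 h (log2 difference −0.64, limma adjusted p 6.14e-06) and 0.72 higher at 24 h than at 6 h (limma adjusted p 9.99e-08). In vehicle JUN rose from 3 to 24 h by 0.56 on the log2 scale (limma adjusted p 1.49e-09), so the later CBD samples approached a vehicle level that had itself moved upward.

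JUND encodes an AP-1 subunit that many resting cells keep at a steady level. It is a single-exon gene on the minus strand of chromosome 19 (hg19, 18390504 to 18392432). At 6 h its CBD samples were at 47.2, 58.6, 53.5 and 53.3 FPKM and its vehicle samples at 71.5, 69.0, 65.9 and 62.9 FPKM. No samples overlapped, and JUND was lower with CBD by a ratio of 0.790 (log2 fold change −0.34, SE 0.062, limma adjusted p 0.000271). At 12 h the values were 61.5, 65.2, 65.6 and 69.0 FPKM with CBD and 82.6, 79.4, 74.8 and 74.9 FPKM with vehicle, again apart, with a log2 fold change of −0.25 (limma adjusted p 0.00266). At 3 h the groups overlapped (66.5 ± 3.57 and 68.2 ± 5.55 FPKM, SD, n = 4).

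By 24 h the order of the JUND groups had turned. The CBD samples were at 91.6, 99.6, 93.7 and 93.7 FPKM and the vehicle samples at 87.6, 89.2, 82.2 and 76.2 FPKM. All CBD samples were above all vehicle samples, but the difference of 0.18 did not pass the threshold (limma adjusted p 0.0185). Between 6 and 24 h the difference from vehicle went up by 0.51 on the log2 scale (limma adjusted p 5.88e-05). Fitted on the 6 h samples alone, which estimates the spread from fewer samples, JUND had a limma adjusted p of 0.0199 at 6 h. At 12 h its call was lost without CBD replicate 1 (limma adjusted p 0.0145) or without vehicle replicate 1 (limma adjusted p 0.0139), with log2 fold changes of −0.22 in both.

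JUNB encodes a JUN protein that is a weaker activator than c-Jun and can oppose it in some promoters. It is a single exon on the plus strand of chromosome 19 (hg19, 12902300 to 12904129), where GENCODE also places HOOK2 on the opposite strand, so reads counted without strand could come from either. Its direction was opposite to that of JUN. At 12 h JUNB was at 22.0, 22.8, 23.4 and 22.5 FPKM with CBD and at 17.6, 18.1, 16.4 and 15.9 FPKM with vehicle. The groups did not overlap, with means of 22.7 ± 0.583 and 17.0 ± 0.996 FPKM (SD, n = 4) and a log2 fold change of 0.39 (SE 0.079, limma adjusted p 0.000364). At 24 h JUNB was at 18.3, 19.4, 22.4 and 20.5 FPKM with CBD and at 16.7, 16.1, 16.4 and 14.0 FPKM with vehicle, a log2 fold change of 0.33 (limma adjusted p 0.00092). At 6 h the samples were apart too, at 20.1 ± 1.51 and 16.3 ± 1.38 FPKM (SD, n = 4), but the difference of 0.28 missed the threshold (limma adjusted p 0.0122). At 3 h they overlapped, with a difference of 0.10 (95% interval −0.062 to 0.26). A change of the JUNB effect over time was not detected (limma F-test, adjusted p 0.139).

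**Figure D2:**
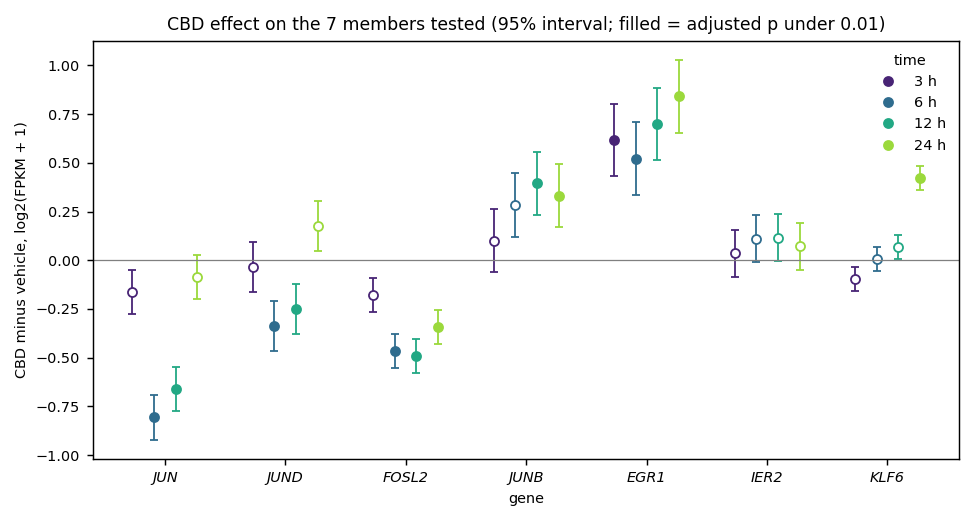
Log2 fold change of CBD against vehicle on log2(FPKM + 1) for the 7 genes tested, with 95% intervals, coloured by time from 3 h (purple) to 24 h (yellow-green). Filled points passed an adjusted p of 0.01: JUN is lowest at 6 h (−0.81) and back near 0 at 24 h, EGR1 is above 0 throughout, and KLF6 is filled at 24 h (0.42).

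The balance among the 3 JUN genes was therefore compared within samples, where differences in library scale cancel. At 6 h JUN made up 16.9 ± 0.751% (SD, n = 4) of their summed FPKM with CBD and 24.3 ± 1.18% with vehicle, while JUNB made up 22.8 ± 1.13% and 14.8 ± 0.584%. JUNB thus exceeded JUN with CBD at 6 h and was below it with vehicle. JUND held 60.3 to 64.8% of the sum on average in all 8 groups.

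The JUN to JUND ratio was lower with CBD at 6, 12 and 24 h, at 0.281 against 0.399, 0.276 against 0.373 and 0.331 against 0.398 (geometric means). In log2 units the differences were −0.50, −0.43 and −0.27, and the samples did not overlap at any of these times. The JUNB to JUND ratio was higher with CBD at 6 h (0.378 against 0.242, log2 difference 0.64) and at 12 h (0.347 against 0.218, log2 difference 0.67), also without overlap. Each of these 5 comparisons gave an exact two-sided permutation p of 0.0286, the smallest that 4 against 4 samples can give, and 0.0457 after adjustment over the 8 comparisons. The other 3, JUN at 3 h and JUNB at 3 and 24 h, had overlapping samples and an exact permutation p of 0.0857. A lower ratio does not say which of the genes differed, and at 24 h neither JUN nor JUND alone passed the test across genes.

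**Figure D3:**
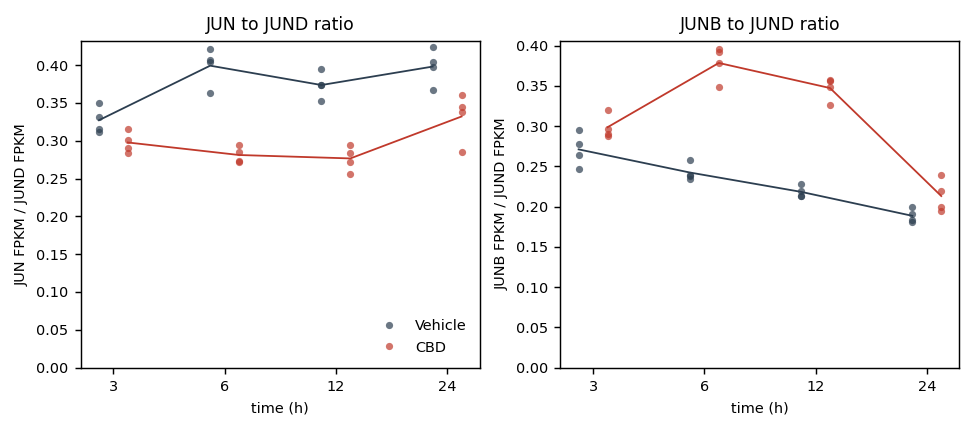
FPKM of JUN (left) and JUNB (right) divided by FPKM of JUND in the same sample (vertical axes, from 0) against time in hours, with 1 point per sample, lines through the arithmetic means, vehicle in dark blue and CBD in red. At 6 and 12 h the CBD points lie below vehicle for JUN and above it for JUNB, without overlap.

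FOSL2 encodes FRA2, a FOS protein without the strong activation domain of c-FOS and with slower kinetics. It has 4 exons on the plus strand of chromosome 2 (hg19, 28615725 to 28640184), and GENCODE places the antisense gene FOSL2-AS1 over part of its exonic sequence. At 6 h FOSL2 was at 6.06, 6.12, 6.60 and 5.76 FPKM with CBD and at 8.27, 9.11, 9.12 and 8.90 FPKM with vehicle. At 12 h it was at 6.27, 6.80, 6.68 and 6.73 FPKM with CBD and at 9.52, 9.50, 9.88 and 9.97 FPKM with vehicle. The groups were apart at both times, with log2 fold changes of −0.47 (limma adjusted p 6.17e-09) and −0.49 (limma adjusted p 1.04e-09).

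Unlike JUN, FOSL2 was still below vehicle at 24 h. Its samples were then at 8.45, 7.90, 8.72 and 8.28 FPKM with CBD and at 10.9, 11.1, 11.02 and 10.4 FPKM with vehicle. They did not overlap, and the log2 fold change was −0.34 (SE 0.042, limma adjusted p 1.47e-07). The FOSL2 effect was not shown to differ between 24 and 6 h (difference 0.12, 95% interval −0.00062 to 0.24, limma adjusted p 0.122). At 3 h the samples overlapped because CBD replicate 1 was at 8.03 FPKM and the other 3 at 6.59 to 6.97 FPKM, against 7.91 to 8.45 FPKM with vehicle. The difference of −0.18 lay just outside the threshold (limma adjusted p 0.0101), and without that replicate it was −0.23 (limma adjusted p 0.000244).

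FOS and FOSL1 encode c-FOS and FRA1, the subunits usually most strongly induced by growth factors, and both stayed under 1 FPKM in every sample. FOS has 4 exons on the plus strand of chromosome 14 (hg19, 75745531 to 75748933). At 24 h FOS was at 0.369, 0.324, 0.229 and 0.259 FPKM with CBD and at 0.134, 0.129, 0.183 and 0.143 FPKM with vehicle. The samples did not overlap at 24 h, nor at 12 h (0.292 ± 0.034 and 0.171 ± 0.0334 FPKM, SD, n = 4), and means were higher with CBD at 3 h (0.507 and 0.364 FPKM) and 6 h (0.351 and 0.256 FPKM) with overlap. On log2(FPKM + 0.1) the exact two-sided permutation p was 0.0286 at 12 and 24 h, the smallest possible. It was 0.171 after adjustment over 12 tests of the 3 low genes. With 4 against 4 samples this test cannot reach 0.01, so it could not have called a change in these genes. With no minimum on FPKM, FOS had a limma adjusted p of 0.00416 at 24 h and 0.0356 at 12 h. FOSL1, which has 4 exons on the minus strand of chromosome 11 (hg19, 65659520 to 65667859), ranged from 0.0296 to 0.216 FPKM, with overlap at all times and adjusted permutation p-values of 0.411 or more.

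EGR1 encodes a zinc finger factor induced through serum response factor and ternary complex factors. It has 2 exons on the plus strand of chromosome 5 (hg19, 137801168 to 137804992), downstream of the pair of CArG boxes shown above. EGR1 was higher with CBD at every time. At 3 h it was at 5.12, 7.59, 5.95 and 4.66 FPKM with CBD and at 3.49, 3.52, 3.21 and 3.37 FPKM with vehicle. The CBD samples were spread widely but all lay above vehicle, with a log2 fold change of 0.62 (SE 0.091, limma adjusted p 9.24e-05). At 6 h EGR1 was at 3.65, 5.16, 3.75 and 3.52 FPKM with CBD and at 2.46, 2.64, 2.32 and 2.47 FPKM with vehicle (log2 fold change 0.52, limma adjusted p 0.000164).

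CBD replicate 2 was the highest EGR1 sample at every time, and FOS was also highest in it at 3 and 6 h, at 0.658 and 0.497 FPKM. Its relative depth was also the highest of the CBD samples at each time (1.045, 1.074, 1.012 and 1.077). Vehicle replicate 4 was likewise the lowest JUNB sample of its group at every time. A link of replicate numbers across times was not tested, and the tests between times treat all 32 samples as separate. Without CBD replicate 2 the EGR1 difference was 0.50 at 3 h (limma adjusted p 0.000325) and 0.42 at 6 h (limma adjusted p 0.00109). It was 0.68 at 12 h (limma adjusted p 1.16e-05) and 0.79 at 24 h (limma adjusted p 2.12e-07). Fitted on the samples of 1 time alone, EGR1 had limma adjusted p-values of 0.0694 at 3 h and 0.0158 at 6 h. The later times had a narrower spread: at 12 h EGR1 was at 3.84, 4.11, 3.84 and 3.79 FPKM with CBD and at 2.19, 2.17, 1.82 and 1.89 FPKM with vehicle, and at 24 h at 4.80, 5.66, 4.93 and 4.65 FPKM against 2.37, 2.45, 2.22 and 2.36 FPKM. The groups stayed apart, with log2 fold changes of 0.70 (limma adjusted p 1.23e-06) and 0.84 (limma adjusted p 1.68e-08) and a ratio of means of 2.13 at 24 h. In vehicle EGR1 fell by 0.39 from 3 to 24 h on the log2 scale (limma adjusted p 0.000455), and a change of the CBD effect over time was not detected (limma F-test, adjusted p 0.181).

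KLF6 encodes a zinc finger factor of the Krüppel-like family that binds GC-rich promoters. It has 4 exons on the minus strand of chromosome 10 (hg19, 3818188 to 3827401), and its promoter carries the same variant AP-1 site as that of JUN. At 24 h KLF6 was at 15.6, 14.4, 15.7 and 14.1 FPKM with CBD and at 10.4, 10.9, 11.2 and 11.1 FPKM with vehicle. The lowest CBD sample was well above the highest vehicle sample, with means of 15.0 ± 0.807 and 10.9 ± 0.327 FPKM (SD, n = 4) and a log2 fold change of 0.42 (SE 0.030, limma adjusted p 5.83e-12). At 3, 6 and 12 h the differences were −0.097 (limma adjusted p 0.047), 0.0083 (limma adjusted p 0.887) and 0.066 (limma adjusted p 0.100), none of them called. At 12 h the KLF6 samples nevertheless did not overlap (12.15 to 13 FPKM with CBD, 11.57 to 12 FPKM with vehicle). The KLF6 effect was higher by 0.36 at 24 h than at 12 h (limma adjusted p 1.66e-06). The JUN and JUND effects rose over the same interval, by 0.58 and 0.43 (limma adjusted p 1.06e-05 and 0.00117). Their changes between 6 and 12 h were not called (limma adjusted p 0.291 and 0.627). The times sampled thus do not give an order of these changes.

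IER2 encodes a small nuclear regulator and is another immediate-early gene. It has 2 exons on the plus strand of chromosome 19 (hg19, 13261225 to 13265725), overlapped by a noncoding RNA gene on the opposite strand. No CBD effect on IER2 was called. Its samples overlapped at all 4 times, with means of 25.2 ± 1.397 and 24.6 ± 1.81 FPKM at 3 h and 31.8 ± 2.14 and 30.1 ± 1.24 FPKM at 24 h (SD, n = 4). The differences were 0.036, 0.11, 0.11 and 0.072, and the widest 95% bound was 0.23, at 6 and 12 h, so a larger effect was outside these intervals. In vehicle IER2 rose from 3 to 24 h by 0.28 on the log2 scale (limma adjusted p 0.000136).

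MYC encodes the c-MYC factor of cell growth, and it was the lowest of the 10 genes, between 0 and 0.0548 FPKM, with 3 samples listed at 0. Its groups overlapped at all 4 times, and all adjusted exact permutation p-values were 0.490 or more. Its relative MYCN, which is amplified in this line and takes the place of MYC in many neuroblastomas, averaged 1762 FPKM. MYCN was 1619 ± 86.4 and 1525 ± 22.2 FPKM at 3 h and 2257 ± 130 and 1554 ± 40.7 FPKM at 24 h with CBD and vehicle (SD, n = 4), and it was higher with CBD at 6, 12 and 24 h (log2 fold changes 0.36, 0.52 and 0.54, limma adjusted p 3.86e-08, 9.89e-12 and 1.82e-12).

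Counted together, 1 of the 7 genes tested was higher and none lower with CBD at 3 h, where 1.18% of all 12621 genes were called higher and 1.28% lower. At 6 h, 1 was higher and 3 were lower, beside 4.07% and 6.13% of all genes. At 12 h, 2 were higher and 3 lower, beside 8.85% and 11.2%. At 24 h, 3 were higher and 1 lower, beside 20.8% and 21.3%. The median log2 fold change of the 7 was −0.034, 0.0083, 0.066 and 0.18 at 3, 6, 12 and 24 h, against 0.0066, −0.0048, −0.0043 and −0.0032 over all genes. The genes were chosen with earlier results of these data known, so these counts describe them and do not test the set. At 24 h so many genes were called that the count of members says little.

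The effect of CBD changed with time for 4 of the 7 genes, JUN, JUND, FOSL2 and KLF6 (limma F-tests, adjusted p 2.51e-08, 0.000129, 0.000435 and 1.35e-09), beside 27.5% of all genes. Between 6 and 24 h the effect rose for 3 of them, JUN, JUND and KLF6, where 20.5% of all genes changed in either direction. In vehicle alone 5 of the 7, JUN, JUND, FOSL2, EGR1 and IER2, changed over time, which is near the share of all genes, 59.6%. JUN, JUND, FOSL2 and IER2 rose and EGR1 fell between 3 and 24 h in vehicle.

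Over the 32 samples, which share their treatment and time groups, JUN varied most like FOSL2 (Pearson r = 0.90) and JUND (r = 0.87) among the 7 genes, while FOSL2 ran opposite to JUNB (r = −0.71) and EGR1 (r = −0.67). Outside the 10 genes, the 3 genes most like JUN were SNX18, STMN4 and DUSP10 (r = 0.96, 0.95 and 0.93). DUSP10 encodes a phosphatase of the JNK and p38 kinases, and STMN4 a stathmin that binds tubulin. Those most like FOSL2 were ANGPTL2, SOX4 and TXNIP (r = 0.96, 0.95 and 0.94), and those most like EGR1 were UNC5B, FAM167A and SLC4A5 (r = 0.88, 0.87 and 0.86). These values describe log2(FPKM + 1) across samples and carry no test.

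Other genes of the pathway were counted from lists. Of 13 other AP-1 and related basic leucine zipper factors, 6 could be tested, and 2, 3, 3 and 4 were higher with CBD at 3, 6, 12 and 24 h with none lower (at these times 1.18%, 4.07%, 8.85% and 20.8% of all genes were higher and 1.28%, 6.13%, 11.2% and 21.3% lower, which are the shares to set beside this and the following lists). MAFF, a small MAF protein without an activation domain, was 2.57 ± 0.0492 FPKM with CBD and 1.87 ± 0.199 FPKM with vehicle at 3 h (SD, n = 4), and it was higher at all 4 times (log2 fold changes 0.32, 0.39, 0.53 and 0.55, limma adjusted p 0.000392, 6.30e-06, 1.49e-08 and 2.52e-09). BATF3, which pairs with JUN proteins, reached 3.71 ± 0.414 and 1.87 ± 0.235 FPKM at 24 h, with a log2 fold change of 0.71 (limma adjusted p 1.81e-09). The median of this list was 0.077, 0.25, 0.20 and 0.35 at the 4 times.

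Among 29 other immediate-early genes, 16 could be tested, and 3, 2, 4 and 7 were higher and 1, 3, 3 and 3 lower at 3, 6, 12 and 24 h. This list shares ATF3 and FOSB with the previous list and KLF2, KLF4 and KLF10 with the Krüppel-like list below. The counts of these lists are therefore not separate. SGK1, a serum- and glucocorticoid-induced kinase, was 2.42 ± 0.124 FPKM with CBD and 0.951 ± 0.0674 FPKM with vehicle at 24 h (SD, n = 4), and its log2 fold change was 0.29 at 3 h and 0.81 at 24 h (limma adjusted p 0.00023 and 7.21e-14). ATF3, a stress-induced factor that can pair with JUN, was higher with CBD at 3 and 24 h (log2 fold changes 0.50 and 0.52, limma adjusted p 0.000178 and 2.67e-06) but not called at 6 or 12 h (limma adjusted p 0.0438 and 0.126). Its change between these times was not tested. The list medians were 0.032, −0.0021, 0.015 and 0.14.

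The 20 upstream kinases and serum response factors, all tested, showed 0, 1, 2 and 5 higher and 1, 0, 1 and 5 lower genes at the 4 times, near the background shares at 24 h. ELK3 and ELK4, ternary complex factors that bind beside serum response factor, were higher at 24 h (log2 fold changes 0.51 and 0.36, limma adjusted p 3.80e-11 and 2.13e-08), and ELK4 was lower at 3 h (−0.22, limma adjusted p 0.00101). The medians of this list lay between −0.022 and 0.0018. Of 20 AP-1 target genes 8 could be tested, with no call at 3 h, 2 lower at both 6 and 12 h, and 2 higher and 2 lower at 24 h, also near the background shares at 24 h. The list medians were 0.038, −0.0046, −0.030 and −0.0076. CCND1, cyclin D1, was 196 ± 4.10 FPKM with CBD and 218 ± 4.08 FPKM with vehicle at 6 h and 131 ± 3.39 and 181 ± 2.63 FPKM at 24 h (SD, n = 4), with log2 fold changes of −0.15 and −0.46 (limma adjusted p 0.00052 and 7.13e-13). CD44, a hyaluronan receptor, was lower at 6, 12 and 24 h (−0.12, −0.19 and −0.092, limma adjusted p 0.000127, 5.60e-08 and 0.000457).

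**Figure D4:**
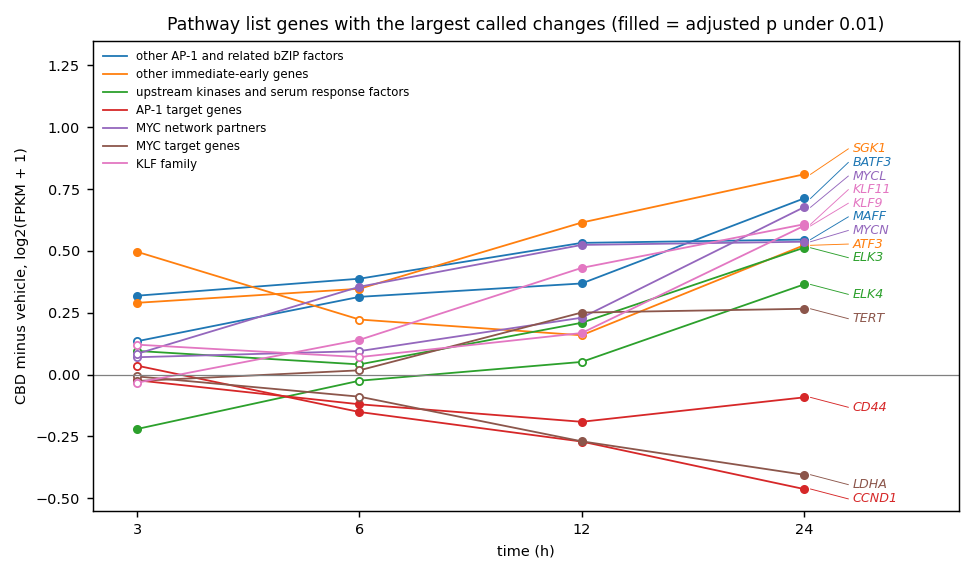
Log2 fold change of CBD against vehicle on log2(FPKM + 1) (vertical axis) against time in hours for the 14 genes named from the pathway lists, coloured by list, with filled points where the adjusted p was under 0.01. SGK1 ends highest at 24 h (0.81) and CCND1 lowest (−0.46).

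In the MYC network, 10 genes were tested, with no call at 3 h, 1 higher and 1 lower at 6 h, 4 higher and 1 lower at 12 h, and 4 higher and none lower at 24 h (list medians −0.021, 0.041, 0.078 and 0.050). The 10 include MYCN and MYCL, which are relatives of MYC rather than partners. Both are among the higher genes at 12 and 24 h. Beside MYCN, MYCL was higher at 24 h, where it reached 7.65 ± 0.132 FPKM in CBD samples and 4.42 ± 0.152 FPKM in vehicle samples (SD, n = 4, log2 fold change 0.68, limma adjusted p 5.42e-15). Of 18 MYC target genes 17 were tested, with no call at 3 or 6 h, 3 higher and 2 lower at 12 h, and 5 higher and 3 lower at 24 h, where 20.8% and 21.3% of all genes were called, so these counts were near the background. The list medians were 0.057, 0.0097, 0.017 and −0.012. LDHA, a lactate dehydrogenase subunit, was lower (−0.41, limma adjusted p 1.33e-12) and TERT, the telomerase catalytic subunit, higher (0.27, limma adjusted p 4.68e-05) at 24 h.

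Of the 11 genes of the Krüppel-like family other than KLF6, 8 were tested, and 0, 1, 3 and 4 were higher and 1, 1, 0 and 1 lower at 3, 6, 12 and 24 h. KLF11, a TGF-beta-inducible repressor, was 11.4 ± 0.273 FPKM with CBD and 8.21 ± 0.197 FPKM with vehicle at 12 h (SD, n = 4), differed by 0.61 on the log2 scale at 24 h (limma adjusted p 1.76e-16) and was already higher at 6 h (0.14, limma adjusted p 0.00027). KLF9, a glucocorticoid-responsive member, was higher at 12 and 24 h (0.17 and 0.60, limma adjusted p 0.000178 and 1.40e-14). The medians were −0.055, −0.028, 0.067 and 0.16. KLF6, called at 24 h alone, had a smaller difference there than KLF11 and KLF9, although these differences were not tested against each other.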

How the data were processed

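RNA-Seq of poly(A) RNA (single reads of 50 bases) was deposited for 32 samples. The authors removed adapters with Trimmomatic 0.36, mapped the reads on hg19 by Tophat and obtained gene FPKM from Cufflinks, and the deposited FPKM were used as they stand. The sources used here name different library kits. The authors describe the run as first stranded but do not say whether FPKM were counted by strand, so strand was treated as unknown. The authors' table of Cuffdiff comparisons (fold changes and q-values) was not used. FPKM carry no depth, so relative depth was estimated from low values and covers ratios between samples alone.

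Samples were grouped by their labels. Genes with a mean of at least 1 FPKM (12621 of 22610) were fitted as 8 group means on log2(FPKM + 1) with limma 3.58.1 in R 4.3.3 (eBayes with trend), and two-sided p-values were adjusted over all genes within a comparison (threshold 0.01). The script was tested on simulated data. Ratios and genes below 1 FPKM were tested with exact permutation tests in scipy 1.17.1 under Python 3.11.15. Genes named from a list were the 2 called with the largest change at any time, and likeness was given for the 3 genes with the smallest F-test p over the 4 effects. The genes and lists were chosen with earlier results of these data known. Gene positions are from GENCODE 44 on hg19 and upstream sequences from RefSeq on GRCh38.p14. Alternatives were other added constants, filters, scalings, thresholds and variance models, a depth term, single time points, a replicate block and leaving out each sample. Position of MYC and promoters of MYC and FOSL1 were not used here. Replicate numbers were checked for pairing of CBD with vehicle within a time, but not across times. In 0 of 16 same-numbered pairs did deviations from the group means correlate above 0.1 (range −0.0757 to 0.0935).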

Additional observations from a re-analysis of the deposited data

Results flagged for a closer look

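In 3 of 80 groups of 4 samples (10 genes in 8 groups), the highest sample stood apart from the other 3 by more than Dixon's 95% limit for the gap as a share of the group's range. Chance flags about 1 in 20 groups, or 4.0 of 80. They were JUN in vehicle at 24 h, where replicate 1 was at 35.5 FPKM, FOS with CBD at 12 h, where replicate 1 was at 0.342 FPKM, and EGR1 with CBD at 6 h, where replicate 2 was at 5.16 FPKM.

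The CBD effect differed between time points for JUN (limma F-test over the 4 times, adjusted p 2.51e-08), JUND (0.000129), FOSL2 (0.000435) and KLF6 (1.35e-09). Among the pairs of times compared, the JUN effect differed between 3 and 6 h and again between 24 h and both 6 and 12 h, and the JUND effect between 24 h and both 6 and 12 h. The FOSL2 effect differed between 3 and 6 h (adjusted p 0.00426) but was not called between 3 and 24 h (adjusted p 0.0305). The KLF6 effect at 24 h differed from those at 3, 6 and 12 h.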

How the results depend on the processing

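No direction of a called change reversed, while uncalled differences of IER2 and JUND at 3 h and KLF6 at 6 h changed sign under 2, 1 and 2 alternatives. Of the values for single genes, 317 kept their side of the threshold, 11 gained a call and 4 lost one under the other settings, and 219, 3 and 2 did so when a sample was left out. With each time point fitted alone, members called were 0 at 3 h and 2 at 6 h, against 1 and 4, and genes called were 26 and 417, against 310 and 1288. A threshold of 0.05 gave 3 members at 3 h, 917 genes at 3 h and 2434 at 6 h. Adding 0.1 gave 2 members at 3 h, and a depth term gave 186 genes. Within a time, the replicate numbers were not shown to pair CBD with vehicle samples (5 of 16 comparisons matched best with their own number). Pairing across times was not checked, although CBD replicate 2 was the highest EGR1 sample at every time. The replicate block gave 2 members at 3 h. Genes called with it at 3, 6, 12 and 24 h were 447, 1570, 2806 and 5641, against 310, 1288, 2533 and 5314. JUNB at 6 h was called with median-ratio scaling (adjusted p 0.00969), JUND at 24 h with quantile normalization (0.00874), and JUND at 12 h was lost with a depth term (0.0104). Leaving out 1 sample gave 1 to 2 members and 164 to 493 genes at 3 h (493, 168 and 196 without CBD replicates 1, 2 and 3, and 183 and 164 without vehicle replicates 3 and 4), 4 to 5 members at 6 and 12 h, and 4 at 24 h. The ratios of JUN or JUNB to JUND kept their direction with 1 FPKM added and without any 1 sample, though 3 against 4 samples cannot reach p under 0.05. FPKM limit what can be said of FOS, FOSL1 and MYC, since counts behind them are not analysed here. Fits of single time points rest on fewer samples, and the causes of these shifts were not tested.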
